A study of Danio rerio with 26 samples.

Results

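The comparison covered here spans the growth of the zebrafish oocyte from stage I to stage IV. It set the 2 stage IV libraries against the 2 stage I libraries across all genes of the oocyte table. Of 32520 gene identifiers, 16067 reached at least 1 TPM (a length-corrected share of all transcripts in a library, not an amount per oocyte) in at least 2 of the 8 oocyte libraries and were tested. The remaining identifiers were too low in these libraries to enter the test. The series holds 26 libraries in all, from oocytes of 4 stages, wild-type embryos and a knockdown experiment. All oocytes carried the label AB, TF and TLF for genotype, with no transgene or treatment named, and the age of the fish is not given in the sources used here. Each library was made from a pool of 50 oocytes, so it averages over those oocytes and whatever cells came with them. Stage I oocytes were collected 1 to 2 days after the females had been purged of mature eggs by mating, and stage IV oocytes 8 to 10 days after it. Stage I oocytes were freed with a pair of collagenases and stage IV oocytes mechanically without collagenase, so the stage and the way of isolation cannot be told apart.

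As background, a fish oocyte enters growth arrested in the first meiotic prophase and enlarges enormously while it stores RNA, ribosomes, mitochondria and yolk for the embryo. During growth it builds the egg envelope from zona pellucida proteins, then takes up vitellogenin, the yolk precursor made by the liver, through receptors on its surface. It grows inside a follicle of granulosa and theca cells, which make oestrogen during growth and, under luteinising hormone, the progestin that triggers maturation.

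The libraries carried oocyte transcripts at both stages. The egg envelope gene zp3b stood at 3560.4 and 2997 TPM in stage I and 644 and 1158 TPM in stage IV, and buc, which organises the Balbiani body of the oocyte, at 1189 and 1089 TPM and 1264 and 1613 TPM. Markers of other cells rose with the stage. The 24 granulosa markers summed to 87.3 and 73.0 TPM in stage I and 904 and 1004 TPM in stage IV. Of these sums the cadherin gene cdh1 made up 49.9 and 34.1 TPM in stage I and 235 and 240.0 TPM in stage IV. It is not confined to follicle cells, since embryos at 0 hours post fertilisation held 342, 327 and 326 TPM. Of the same sums the keratin gene krt8 made up 15.5 and 10.8 TPM in stage I and 120.5 and 192 TPM in stage IV. The keratin gene krt18a.1 made up 3.86 and 5.2 TPM in stage I and 34.1 and 62.8 TPM in stage IV. The 27 stromal, fibroblast and vessel wall markers summed to 35.3 and 20.6 TPM and 263 and 508 TPM, and the 37 blood, endothelial and immune markers to 36.7 and 54.6 TPM and 428 and 1270.0 TPM. In every one of these sums both stage IV libraries lay above both stage I libraries. The defining granulosa gene amh stayed under 1 TPM in all 8 libraries. In such bulk samples a change in the number of cells and a change in RNA per cell cannot be told apart. The stage IV libraries also differed from each other. The epidermal keratin krt5, chosen after its values were seen, stood at 720.4 and 0.39 TPM in stage IV libraries 1 and 2, and the haemoglobin gene hbaa1 at 45.0 and 400.5 TPM, so krt5 was high in the first and hbaa1 highest in the second. Libraries of one stage correlated across genes at Pearson's r of 0.983 for stage I and 0.975 for stage IV, and libraries of different stage at 0.908 to 0.924.

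Between stage I and stage IV 45.3% of the genes tested changed, and most of that change fell after stage III. The stage I and stage IV libraries did not overlap in 71.5% of the genes tested, so a lack of overlap alone marks no gene out. At an adjusted p under 0.05, 3680 genes rose, or 22.9% of those tested, and 3603 fell, or 22.4%. With a change of at least 2-fold added, 2667 rose and 2651 fell, by limma on log2(TPM + 1), whose fold changes understate the change of low genes. The median change over all genes was -0.07 on the log2 scale. Scaling the libraries by the median of ratios shifted that median by 0.21, and 63.0% of the 2-fold calls were then rises, against 50.2% without it. All changes below are therefore relative to a baseline that depends on the scaling. The shift was not the same for every gene or list. The median of the ribosomal protein list described below, for one, moved from 1.08 to 1.32.

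**Figure D1:**
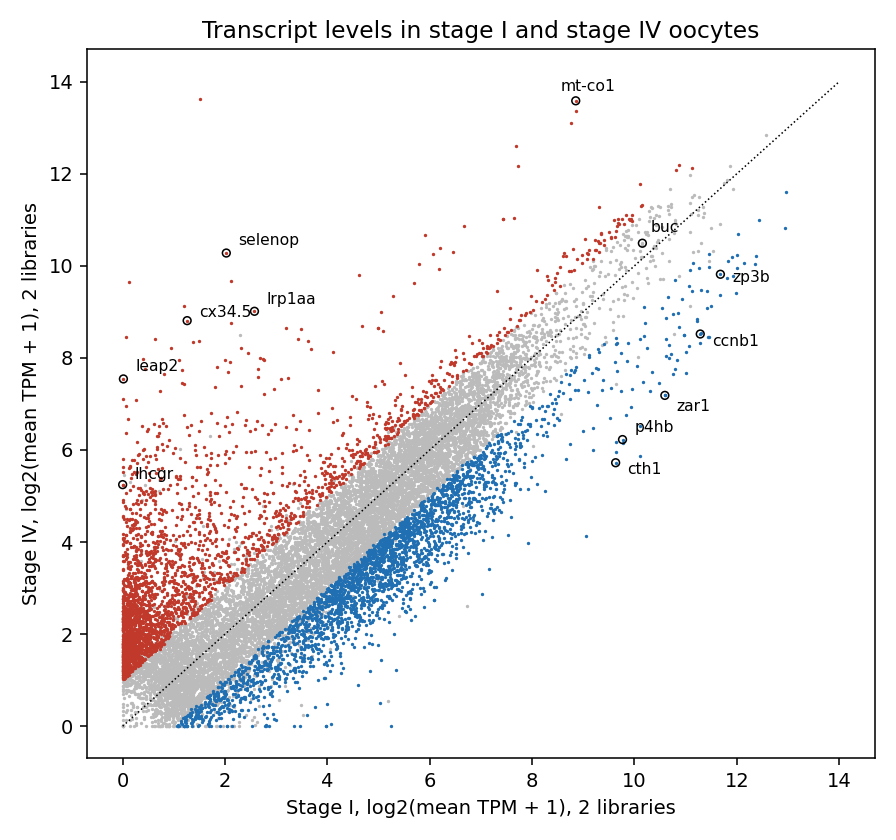
Mean TPM of each tested gene in stage I (horizontal axis) and stage IV (vertical axis), both as log2(TPM + 1), with the mean of 2 libraries per stage. Red points rose and blue points fell by at least 2-fold at an adjusted p under 0.05 (2667 and 2651 genes), grey points did not pass, and 12 of the genes described in the text are labelled.

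The intermediate stages placed the change late. Stage II differed from stage I in 25 genes that rose and 3 that fell (0.156% and 0.0187% of genes tested). From stage II to III, 322 rose and 85 fell (2.0% and 0.529%), and from stage III to IV, 2298 rose and 2140 fell (14.3% and 13.3%). Of the 2667 genes that rose at least 2-fold over the whole interval, 2024 (75.9%) made their largest step from stage III to IV, and of the 2651 that fell, 2191 (82.6%) did. These steps add up to the whole change and share libraries with it, so the shares describe a path and are no independent result. Stage III was isolated with a single collagenase, so the last step also coincides with the end of collagenase use.

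Mitochondrially encoded transcripts had the highest median change of the 34 gene lists described here. All 13 of 13 rose, with a median log2 change of 4.36, and together they took up 0.188% and 0.268% of TPM in the stage I libraries and 6.07% and 4.26% in the stage IV libraries. The stage II libraries held 1.32% and 1.66% and the stage III libraries 4.8% and 4.05%, and the stage III and IV libraries overlapped. The step from stage I to II raised all 13, which were 13 of the 25 genes that rose in it. The step from stage II to III raised 8, and the last step raised 1. Of all tested genes those steps raised 0.156%, 2.0% and 14.3%. The cytochrome c oxidase subunit mt-co1 went from 416 and 506 TPM in stage I to 14249 and 10321 TPM in stage IV (log2 change 4.72 ± 0.26 SE, adjusted p = 2.98e-05). Cytochrome b, mt-cyb, went from 180.0 and 229 TPM to 7106 and 5321 TPM (log2 change 4.92 ± 0.25 SE, adjusted p = 2.24e-05). In both genes every stage IV library lay above every stage I library. By stage IV mt-co1, mt-co2, mt-co3, mt-cyb and mt-atp6 were among the 10 genes of highest mean TPM.

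Nuclear genes of the same respiratory chain rose as well, by much less. Of 87 tested genes of oxidative phosphorylation the rises numbered 58, or 66.7% against 22.9% of all genes, with a single fall (1) and a median change of 0.65 on the log2 scale. Without stage IV library 1 the count of rises was 38. The muscle- and heart-type cytochrome c oxidase isoforms cox6a2, cox7a1 and cox8b were among those that rose most. For example, cox7a1 stood at 0.9 and 0 TPM in stage I and 36.9 and 33.6 TPM in stage IV (log2 change 4.72 ± 0.51 SE, adjusted p = 0.000309), and cox8b at 1.94 and 2.39 TPM and 51.7 and 37.5 TPM (log2 change 3.83 ± 0.32 SE, adjusted p = 0.000101). A gene annotated as cox6b1 moved from 0.23 and 0.5 TPM to 45.5 and 51.9 TPM. These isoforms were near 0 at the outset, and the somatic markers rose in the same libraries; their part in these rises was not tested.

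Transcripts of the ribosome and of the machinery that builds it moved in opposite directions. Cytosolic ribosomal protein genes rose in 73 of 84 tested, or 86.9% against 22.9% of all genes (median log2 change 1.08, 1 fall), and took 5.28% and 7.44% of TPM in stage I and 13.9% and 11.9% in stage IV. Ribosome biogenesis and nucleolar genes fell in 46 of 62 and rose in none (74.2% fell, against 22.4%), with a median of -0.97, and their share went from 0.928% and 0.922% to 0.449% and 0.491%. In both sums the groups did not overlap. The last step, from stage III to IV, held rises of 52 of the 84 ribosomal protein genes and falls of 30 of the 62 biogenesis genes. In that step 14.3% of all tested genes rose and 13.3% fell. Somatic markers and the way of isolation also differed between stages I and IV, and their part in these changes was not tested. Leaving out stage I library 1 gave 48 rises of ribosomal protein genes, and leaving out stage IV library 1 gave 42.

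Among the ribosomal proteins, rps28 stood at 537 and 725 TPM in stage I and 2886 and 2084 TPM in stage IV (log2 change 1.97 ± 0.22 SE, adjusted p = 0.00038). The large subunit protein gene rpl5a stood at 132 and 185 TPM and 813 and 579 TPM (log2 change 2.13 ± 0.22 SE, adjusted p = 0.000257). Both genes had stage IV values above every earlier library, and rps28 was still at 794 and 778 TPM in stage III. The elongation factor gene eef1a1l1, one of the 10 most abundant transcripts of stage IV, rose from 1958 and 1797 TPM to 5029 and 4373 TPM. On the other side, polr1a, the largest subunit of the RNA polymerase that makes ribosomal RNA, fell from 52.1 and 43.9 TPM to 7.25 and 6.17 TPM (log2 change -2.67 ± 0.23 SE, adjusted p = 0.000116). The ribosomal RNA methyltransferase nop2 fell from 91.9 and 108 TPM to 15.2 and 12.6 TPM (log2 change -2.76 ± 0.21 SE, adjusted p = 7.54e-05), and dkc1, the pseudouridine synthase of the nucleolus, from 181 and 161 TPM to 21.6 and 44.0 TPM (log2 change -2.43 ± 0.29 SE, adjusted p = 0.00045). Of 76 tested mitochondrial ribosomal protein genes 21 rose and 14 fell, or 27.6% and 18.4%, which is near the 22.9% and 22.4% of all genes, and 29 rose and 7 fell after median-of-ratios scaling. Without stage IV library 1 those counts were 11 and 5, and without stage I library 2 the falls were 7. Translation factors and aminoacyl-tRNA synthetases likewise lay near the shares of all genes, with 16 of 66 higher and 10 lower (24.2% and 15.2%). After the scaling the counts were 25 higher and 6 lower. Without stage IV library 1 the counts were 7 and 5, and without stage I library 1 there were 6 falls. The glutamine-tRNA synthetase gene qars1, for one, fell from 98.7 and 94.3 TPM to 41.0 and 37.7 TPM.

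**Figure D2:**
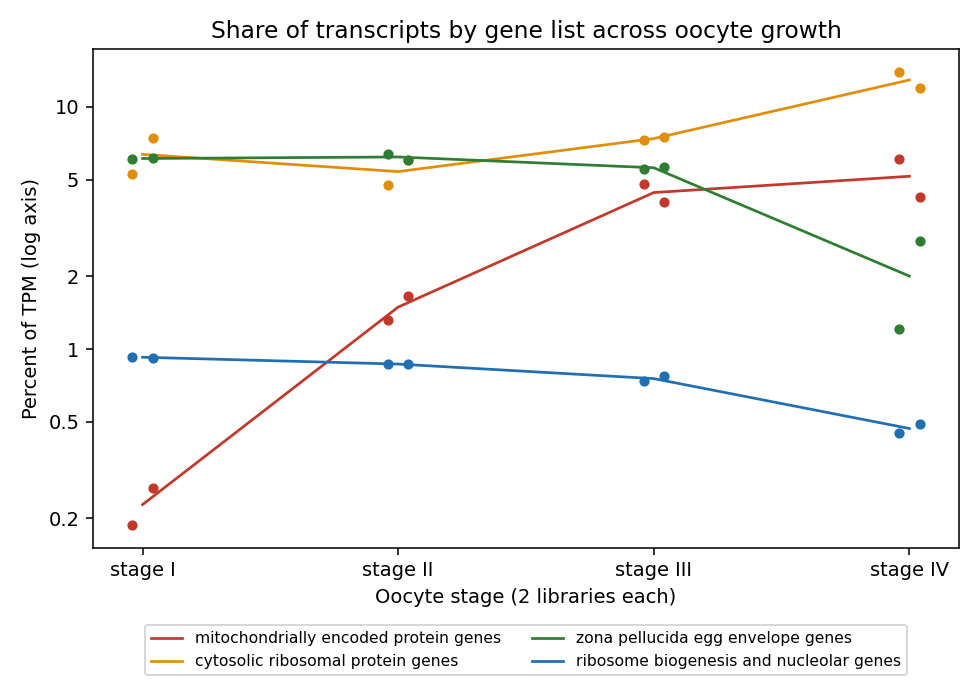
Share of all TPM (percent, log axis) taken by 4 gene lists in each oocyte library, with stages I to IV on the horizontal axis, 1 point per library and a line through the stage means. Mitochondrially encoded genes climb from 0.188% and 0.268% to 6.07% and 4.26%, and zona pellucida genes stay between 5.56% and 6.37% through stage III and then drop. The ribosomal protein and ribosome biogenesis lists move apart from stage II to III and further from stage III to IV.

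Egg envelope transcripts were among the most abundant of stage I and fell at the end of growth. Of 23 tested zona pellucida genes 18 fell and none rose, a share of 78.3% against 22.4% of all genes that fell. Their sum was 6.11% and 6.12% of TPM in stage I, 5.56% and 5.64% in stage III, and 1.21% and 2.79% in stage IV. The 2 stage IV libraries thus lay apart from each other but both below every earlier library. In the step from stage III to IV 16 of the 23 genes fell, beside 13.3% of all tested genes. The zpax2 gene fell from 178 and 163 TPM to 28.3 and 28.1 TPM (log2 change -2.55 ± 0.15 SE, adjusted p = 3.03e-05), and zp3b fell from the values given above (log2 change -1.92 ± 0.29 SE, adjusted p = 0.00146). For zp2.1 the stage I values were 5005 and 4063 TPM and the stage IV values 506 and 1628 TPM (log2 change -2.31 ± 0.49 SE, adjusted p = 0.00605), and the log2 change was -1.47 without stage IV library 1. Reads can be divided between copies of this family, whose sequences were not compared here, so the values of single copies are less certain than their sum. Outside this family, the abundant si:dkey-241l7.2 went from 7716 and 7915 TPM to 992 and 2612 TPM, while the thymosin gene tmsb5 and the histone gene h2af1al, both among the top 10 at stage IV, did not pass the test. The values of tmsb5 were 5017 and 7086 TPM and 7051 and 7541 TPM.

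Regulators made by the oocyte itself diverged, with sharp falls in some and no called change in others. Of 23 tested oocyte-specific and oocyte growth genes 10 fell and 3 rose (43.5% and 13.0%), and of 25 maternal-effect genes of egg activation and cleavage 11 fell and 3 rose (44.0% and 12.0%), beside 22.4% and 22.9% of all genes. The maternal-effect rises were 6 after median-of-ratios scaling and 1 without stage I library 1 or stage IV library 2. The zinc finger gene cth1, which encodes a maternal RNA-binding protein of the ZFP36 family, fell from 752 and 833 TPM to 45.9 and 57.7 TPM (log2 change -3.92 ± 0.16 SE, adjusted p = 1.2e-05). Zygote arrest 1, zar1, needed for oogenesis and for holding maternal mRNAs, fell from 1342 and 1748 TPM to 117 and 173 TPM (log2 change -3.42 ± 0.24 SE, adjusted p = 5.12e-05). In both genes all stage IV values were far below all stage I values. The growth factor gene gdf9 fell from 65.5 and 49.3 TPM to 5.29 and 8.85 TPM (log2 change -2.88 ± 0.25 SE, adjusted p = 0.000126), while its partner bmp15 moved from 211 and 206 TPM to 157 and 163 TPM (log2 change -0.38 ± 0.13 SE, adjusted p = 0.0466), a call that was lost after scaling and on leaving out any 1 library. The adjusted p of bmp15 ranged from 0.0769 to 0.131 over those 4 omissions and was 0.492 after scaling. The transcription factor gene figla fell from 42.1 and 74.6 TPM to 24.8 and 21.1 TPM, with the call lost without stage IV library 2 (adjusted p = 0.0578).

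Several maternal regulators did not pass the test. The deadenylation adaptor gene btg4 was at 592 and 1177 TPM in stage I and 582 and 636 TPM in stage IV, with overlapping groups. For buc the stage IV values lay above the stage I values and the log2 difference was 0.33 ± 0.20 SE (adjusted p = 0.202), and for the germ cell translation regulator dazl it was -0.45 ± 0.17 SE (adjusted p = 0.0646).

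**Figure D3:**
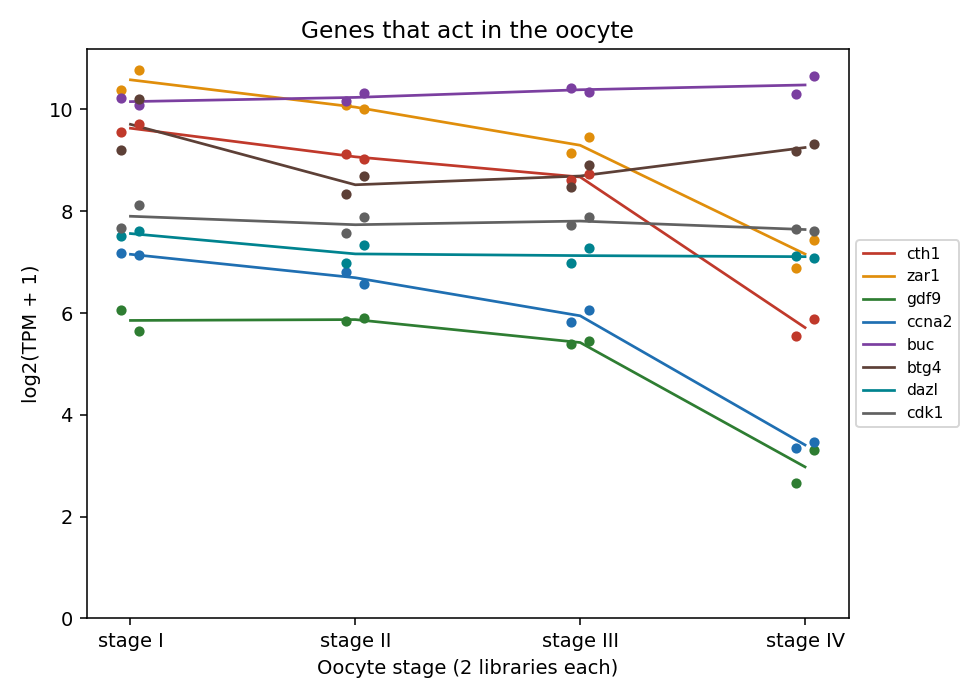
Level in each oocyte library, as log2(TPM + 1), of 8 genes that act in the oocyte, with stages I to IV on the horizontal axis, 1 point per library and a line through the stage means. The lines of cth1, zar1, gdf9 and ccna2 bend down after stage III, while those of buc, btg4, dazl and cdk1 end closer to their stage I level.

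Most genes of the piRNA pathway, which silences transposons in the germ line, fell. Of 17 tested 14 fell and none rose (82.4% against 22.4%). The Tudor domain genes tdrd1, tdrd5 and rnf17 had the largest changes. Levels of tdrd1 were 95.9 and 84.7 TPM in stage I and 13.09 and 11.7 TPM in stage IV (log2 change -2.77 ± 0.22 SE, adjusted p = 8.46e-05), and of tdrd5 83.8 and 65.1 TPM and 9.6 and 14.9 TPM (log2 change -2.53 ± 0.26 SE, adjusted p = 0.000274). The Argonaute gene piwil1 fell from 67.0 and 69.3 TPM to 19.6 and 30.2 TPM (log2 change -1.45 ± 0.23 SE, adjusted p = 0.0016), and rnf17 from 52.0 and 45.5 TPM to 4.58 and 8.31 TPM. In these 4 genes no stage IV value reached a stage I value.

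Germ plasm genes fell in 11 of 20 and rose in 4 (55.0% and 20.0%, beside 22.4% and 22.9% of all genes), with 6 falls without stage IV library 1 and 2 rises on leaving out either stage IV library. Their summed share of TPM, in contrast, was 0.387% and 0.419% in stage I and 0.495% and 0.555% in stage IV, without overlap. The RNA-binding protein gene dnd1, needed for primordial germ cells, fell from 46.7 and 70.35 TPM to 3.25 and 6.71 TPM (log2 change -3.35 ± 0.33 SE, adjusted p = 0.000206). The Vasa gene ddx4 fell from 135 and 101 TPM to 52.1 and 73.2 TPM (log2 change -0.91 ± 0.20 SE, adjusted p = 0.00824), a call lost without stage IV library 1 (adjusted p = 0.0534). Of 21 tested meiotic chromosome axis and recombination genes 8 fell and none rose (38.1% fell, beside 22.4% of all genes). The falls were 5 after median-of-ratios scaling, 5 without stage I library 2 and 3 without stage IV library 1. The recombination hotspot gene prdm9 fell from 52.4 and 47.8 TPM to 17.3 and 19.6 TPM (log2 change -1.40 ± 0.18 SE, adjusted p = 0.000609). The axis gene sycp3 was low throughout, at 0.64 and 0.43 TPM and 1.6 and 0.46 TPM. Among 10 tested early germ cell and oogonium markers 4 fell and 2 rose (40.0% and 20.0%, beside 22.4% and 22.9% of all genes). The share that rose was thus near that of all genes. In contrast to the falls, the 16 genes of this list summed to 1069 and 1116 TPM in stage I and 1571 and 1399 TPM in stage IV. Falls numbered 2 after scaling, and fewer than 4 were also called without stage I library 2 or without stage IV library 1. One of the rises was of id1, an inhibitor of helix-loop-helix transcription factors, from 7.6 and 9.27 TPM to 195 and 181 TPM (log2 change 4.33 ± 0.29 SE, adjusted p = 4.74e-05).

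Of 71 tested genes for mRNA storage, polyadenylation, deadenylation and decay 31 fell and 4 rose (43.7% and 5.63%). Those shares compare with 22.4% and 22.9% of all tested genes, and median-of-ratios scaling gave 25 falls and 11 rises. The 4 largest called changes with at least 10 TPM in the higher stage were 2 rises and 2 falls. The poly(A)-binding protein gene pabpc1b went from 1.19 and 1.3 TPM to 248 and 100.4 TPM and the mRNA decay factor gene zfp36l1b from 1.58 and 1.82 TPM to 47.7 and 31.9 TPM. The falls were those of cth1 and zar1, given above.

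Maturation and M-phase genes changed in both directions. Of 45 tested 17 fell and 6 rose (37.8% and 13.3%, beside 22.4% and 22.9% of all genes), and there were 3 rises on leaving out stage I library 1 or either stage IV library. Cyclin A2, ccna2, fell from 144 and 139 TPM to 9.2 and 10.0 TPM (log2 change -3.75 ± 0.17 SE, adjusted p = 1.59e-05). Cyclin B1, ccnb1, the regulatory subunit of the kinase that drives entry into M phase, fell from 1983 and 3007 TPM to 307 and 425 TPM (log2 change -2.75 ± 0.26 SE, adjusted p = 0.000174). Its catalytic partner cdk1 did not pass, at 204 and 278 TPM in stage I and 201 and 196 TPM in stage IV (log2 difference -0.26 ± 0.19 SE, adjusted p = 0.297).

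The inhibitory kinases of that complex fell too. Levels of wee1 were 69.0 and 64.3 TPM and 6.33 and 4.96 TPM (log2 change -3.35 ± 0.21 SE, adjusted p = 4.13e-05), and of wee2, the oocyte form, 377 and 352 TPM and 118 and 170.0 TPM (log2 change -1.36 ± 0.19 SE, adjusted p = 0.000924). The kinase gene mos, which acts upstream of MAP kinase in maturing oocytes, fell from 264 and 362 TPM to 120.0 and 127 TPM (log2 change -1.32 ± 0.18 SE, adjusted p = 0.000838). The chromosomal passenger gene cdca8 fell from 224 and 323 TPM to 25.1 and 49.4 TPM. All of these had stage IV values below both stage I values. Of 35 tested DNA replication licensing genes 9 fell and 7 rose (25.7% and 20.0%), close to the 22.4% and 22.9% of all genes, with 5 lower and 12 higher after median-of-ratios scaling. Leaving out either stage IV library gave 5 lower and 4 higher. The licensing factor gene cdt1 fell from 138 and 141 TPM to 20.1 and 27.4 TPM (log2 change -2.52 ± 0.17 SE, adjusted p = 4.87e-05) and cdc6 from 131 and 126 TPM to 19.7 and 40.6 TPM.

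Most factors that later act at genome activation were lower in stage IV, but their sum was not. The list summed to 1152 and 1213 TPM in stage I and 1372 and 1081 TPM in stage IV, with overlapping groups. Of 21 tested pluripotency and genome activation factors 13 fell and 3 rose (61.9% against 22.4% lower). The homeobox gene nanog fell from 179 and 225 TPM to 23.0 and 53.2 TPM (log2 change -2.48 ± 0.39 SE, adjusted p = 0.00168), and the SoxB1 gene sox19b from 60.6 and 67.0 TPM to 8.43 and 10.3 TPM (log2 change -2.65 ± 0.19 SE, adjusted p = 6.4e-05). The Oct4-related gene pou5f3 fell from 21.5 and 37.2 TPM to 3.7 and 7.85 TPM (log2 change -2.18 ± 0.37 SE, adjusted p = 0.00222). The zinc finger gene znf281b, the target of the knockdown in this series, fell from 20.4 and 18.4 TPM to 7.09 and 6.36 TPM (log2 change -1.40 ± 0.24 SE, adjusted p = 0.00256). None of the 4 had overlapping stage I and stage IV libraries.

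Of 56 tested DNA methylation and chromatin regulators 18 fell and 10 rose (32.1% and 17.9%, beside 22.4% and 22.9% of all genes), with 6 rises without stage IV library 1. The de novo DNA methyltransferase gene dnmt3bb.2 fell from 29.2 and 30.7 TPM to 3.65 and 5.04 TPM, the histone H3 lysine 9 methyltransferase gene suv39h1b from 70.8 and 76.8 TPM to 10.2 and 18.2 TPM, and the Polycomb methyltransferase gene ezh2 from 35.6 and 29.6 TPM to 8.46 and 4.9 TPM. Histone and linker histone genes rose in 9 of 27 and fell in 4 (33.3% and 14.8%, beside 22.9% and 22.4% of all genes). Their summed share of TPM overlapped between the stages, at 1.24% and 1.68% in stage I and 1.46% and 1.54% in stage IV. The variant gene h2ax fell from 58.3 and 112 TPM to 18.3 and 15.96 TPM, whereas macroh2a2 rose from 4.49 and 8.06 TPM to 26.7 and 29.9 TPM. Histone transcripts that lack a poly(A) tail can be read here because the libraries were made from ribosomal-RNA-depleted total RNA.

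Protein folding genes of the endoplasmic reticulum fell in 19 of 38 and rose in 4 (50.0% and 10.5%, beside 22.4% and 22.9% of all genes). The protein disulphide isomerase gene p4hb fell from 962 and 778 TPM to 91.0 and 56.7 TPM (log2 change -3.57 ± 0.27 SE, adjusted p = 7.36e-05) and pdia4 from 1061 and 766 TPM to 114 and 102 TPM (log2 change -3.06 ± 0.20 SE, adjusted p = 4.53e-05). The sensor gene atf6 of the unfolded protein response fell from 57.3 and 41.2 TPM to 8.45 and 5.22 TPM. An exception was pdia2, which rose from 0.79 and 0.64 TPM through 136 and 121 TPM at stage III to 14.7 and 32.5 TPM at stage IV.

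Among genes of uptake and breakdown, rises outnumbered falls. The counts were 11 of 31 for yolk uptake and endocytic genes, 15 of 32 for cathepsin and lysosomal genes, 8 of 22 for V-ATPase proton pump genes and 16 of 45 for proteasome subunits. The rising shares were 35.5%, 46.9%, 36.4% and 35.6%, beside 22.9% of all genes. Falls numbered 3, 3, 2 and 2. These counts are not firm. Median-of-ratios scaling gave 15, 17, 14 and 22 rises in the same order. Without stage IV library 1 the rises were 7, 7, 4 and 9 in the same order, without stage IV library 2 the lysosomal rises were 5, and without stage I library 2 the uptake and lysosomal rises were 7 and 8. The proteasome subunit gene psmd14 rose from 144 and 146 TPM to 253 and 238 TPM (log2 change 0.76 ± 0.13 SE, adjusted p = 0.00255). The proton pump subunit gene atp6v1c1b rose from 14.8 and 11.9 TPM to 33.7 and 28.0 TPM (log2 change 1.15 ± 0.21 SE, adjusted p = 0.00325).

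Among the receptors, lrp1aa, of the low-density lipoprotein receptor family, rose from 4.87 and 5.05 TPM to 643 and 388 TPM (log2 change 6.39 ± 0.25 SE, adjusted p = 1.16e-05), while lrp13 moved from 864 and 762 TPM to 409.6 and 554 TPM (log2 change -0.77 ± 0.20 SE, adjusted p = 0.0147). The call for lrp13 was lost after scaling (adjusted p = 0.074), without stage I library 1 (adjusted p = 0.06) and without stage IV library 1 (adjusted p = 0.0795). The protease gene ctsk rose from 0.82 and 1.25 TPM to 100.5 and 29.2 TPM (log2 change 4.77 ± 0.53 SE, adjusted p = 0.000341) and ctsf from 1.24 and 1.51 TPM to 18.1 and 17.9 TPM (log2 change 3.00 ± 0.27 SE, adjusted p = 0.000141). Transcripts of vitellogenin itself were low. Of 8 genes 5 were tested and 1 rose, and vtg1 stood at 2.14 and 3.83 TPM and 11.8 and 106 TPM, with the call lost without stage I library 1 (adjusted p = 0.085) or stage IV library 2 (adjusted p = 0.097); without the latter the log2 change was 1.72 in place of 3.25. Of 44 tested lipid and lipoprotein genes 14 rose and 7 fell (31.8% and 15.9%, beside 22.9% and 22.4% of all genes). The apolipoprotein E gene apoeb rose from 2.55 and 2.79 TPM to 62.8 and 93.2 TPM (log2 change 4.40 ± 0.36 SE, adjusted p = 9.84e-05). The somatic markers rose in the same libraries as lrp1aa, ctsk and apoeb, and their part in these rises was not tested.

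Most granulosa markers rose, part of them already in stage III. Stage I was isolated with a pair of collagenases and stage III with a single one, and the part of isolation in these rises was not tested. Of 19 tested granulosa markers 17 rose and none fell (89.5% against 22.9%). Of these markers 10 rose from stage II to III and 13 from stage III to IV, where 2 fell. Over all tested genes 2.0% and 14.3% rose in these steps, and 13.3% fell in the last. Of 11 tested theca and steroidogenic markers 7 rose and 1 fell (63.6% and 9.09%, beside 22.9% and 22.4% of all genes). The genes star and hsd3b1 stand in both the granulosa and the theca list, so their rises count in each. The luteinising hormone receptor gene lhcgr was listed at 0 in both stage I libraries, at 0.39 and 0.26 TPM in stage III and at 31.6 and 42.4 TPM in stage IV (adjusted p = 2.24e-05). The progesterone receptor gene pgr was at 0.4 and 0.22 TPM, 4.26 and 4.33 TPM and 69.7 and 56.6 TPM in stages I, III and IV (log2 change 5.61 ± 0.28 SE, adjusted p = 2.24e-05). The oestrogen receptor gene esr2b followed the same course, with 0.12 and 0.14 TPM, 5.13 and 6.17 TPM and 56.4 and 52.3 TPM (log2 change 5.61 ± 0.27 SE, adjusted p = 2.24e-05). Each of these was thus highest in stage IV. From stage II to III pgr (log2 change 2.06, adjusted p = 0.0134 by limma) and esr2b (log2 change 2.39, adjusted p = 0.00932) already rose. For lhcgr that step did not pass (adjusted p = 0.47).

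The growth factor gene igf3, expressed in the gonads of fish, went from 0.1 and 0 TPM to 92.0 and 72.1 TPM (log2 change 6.30 ± 0.38 SE, adjusted p = 3.65e-05), and inha, the inhibin alpha subunit, from 1.05 and 1.51 TPM to 173 and 172 TPM (log2 change 6.26 ± 0.34 SE, adjusted p = 2.96e-05). Among steroidogenic genes, hsd3b1, a hydroxysteroid dehydrogenase, rose from 0.39 and 0.86 TPM to 87.4 and 75.8 TPM (log2 change 5.68 ± 0.29 SE, adjusted p = 2.24e-05), and star, which carries cholesterol into mitochondria, from 0.48 and 0.12 TPM to 10.4 and 9.68 TPM (log2 change 3.10 ± 0.28 SE, adjusted p = 0.000141). The theca-cell hormone gene insl3 rose from 0.07 and 0 TPM to 35.9 and 17.2 TPM. All stage IV values of these 5 genes lay above all stage I values.

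Ovarian aromatase behaved differently. Its gene cyp19a1a, which converts androgen to oestrogen, stood at 0.25 and 0.12 TPM in stage I, 3.52 and 4.68 TPM in stage II, 127 and 82.8 TPM in stage III and 1.07 and 9.01 TPM in stage IV, with its highest values in stage III (log2 change 1.94 ± 0.65 SE, adjusted p = 0.041). The rise from stage II to III (log2 change 4.35, adjusted p = 0.0172) and the fall from stage III to IV (log2 change -4.51, adjusted p = 0.0026) both passed the test. The call between stages I and IV was lost without either stage I library and without stage IV library 2 (adjusted p = 0.0914, 0.108 and 0.17). Without stage IV library 2 the log2 change was 0.81. In the wider list of progestin, gonadotropin, oestrogen and growth factor signalling genes, 18 of 46 rose and 11 fell (39.1% and 23.9%, beside 22.9% and 22.4% of all genes), and its falls ranged from 3 to 17 on leaving out 1 library, with 3 without stage IV library 1, 4 without stage IV library 2 or stage I library 1, and 17 without stage I library 2.

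**Figure D4:**
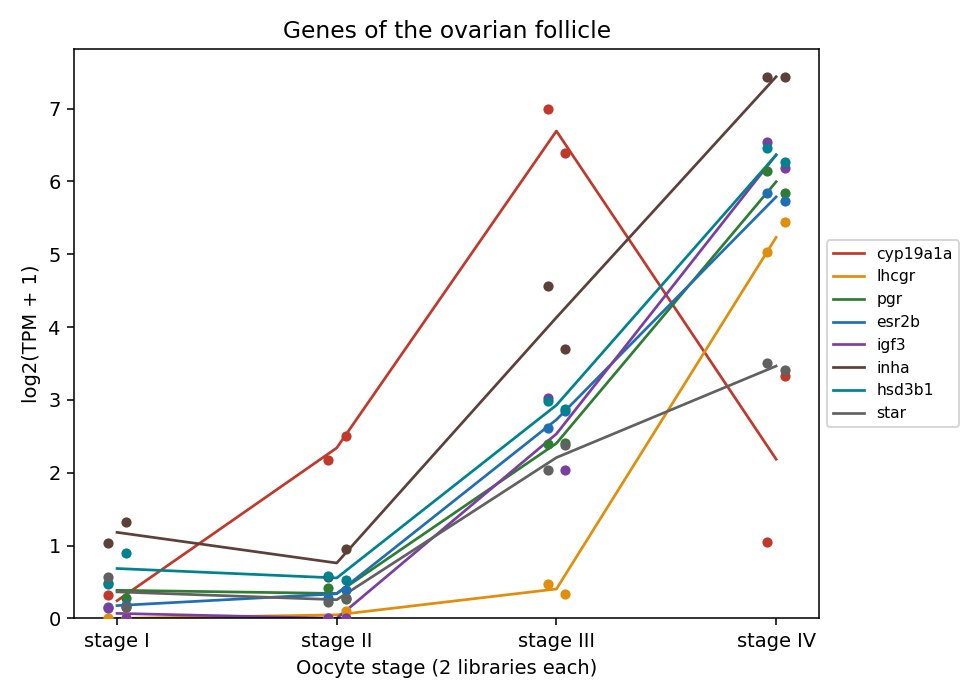
Level in each oocyte library, as log2(TPM + 1), of 8 genes of the ovarian follicle, with stages I to IV on the horizontal axis, 1 point per library and a line through the stage means. The aromatase gene cyp19a1a peaks in stage III and is low again in stage IV, while lhcgr, pgr, esr2b, igf3, inha, hsd3b1 and star are highest in stage IV.

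Most markers of stroma, vessel wall and blood rose. Of 21 tested stromal, fibroblast and vessel wall markers 17 rose and none fell, and of 24 tested blood, endothelial and immune markers 17 rose and none fell. These shares were 81.0% and 70.8%, beside 22.9% of all genes. Smooth muscle actin acta2 went from 0.47 and 0.59 TPM to 62.0 and 124 TPM, and was already at 44.7 and 43.6 TPM in stage III. The collagen gene col1a2 rose from 0.29 and 0.26 TPM to 3.61 and 6.86 TPM (log2 change 2.24 ± 0.32 SE, adjusted p = 0.00112). The haemoglobin gene hbaa1 rose from 1.46 and 3.73 TPM to the unequal stage IV values given above (log2 change 5.32 ± 0.91 SE, adjusted p = 0.0024), with a change of 6.88 without stage IV library 1 and 3.75 without stage IV library 2.

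Tissue dissociation and immediate early genes rose in 18 of 41 and fell in 5 (43.9% and 12.2%, beside 22.9% and 22.4% of all genes), with 2 falls on leaving out stage I library 1 or either stage IV library. The AP-1 gene junbb went from 9.01 and 14.6 TPM to 358 and 225 TPM (log2 change 4.51 ± 0.35 SE, adjusted p = 8.06e-05) and the antiproliferative gene btg1 from 9.07 and 4.55 TPM to 181 and 139 TPM (log2 change 4.42 ± 0.31 SE, adjusted p = 5.25e-05). Stage IV also differed from stage I in the way of isolation and in the level of somatic markers, and the part of either in these rises was not tested. Of 32 tested claudin, junction and connexin genes 9 rose and 2 fell (28.1% and 6.25%), so the share that rose was near that of all genes. Claudin 11a, cldn11a, rose from 0.51 and 1.35 TPM to 329.7 and 265 TPM (log2 change 7.30 ± 0.40 SE, adjusted p = 2.78e-05), the gap junction gene cx34.5 from 1.07 and 1.72 TPM to 449 and 446 TPM (log2 change 7.56 ± 0.29 SE, adjusted p = 9.41e-06), and E-cadherin, cdh1, from 49.9 and 34.1 TPM to 235 and 240.0 TPM (log2 change 2.50 ± 0.22 SE, adjusted p = 0.000141). Another connexin gene, cx43, reached 54.4 and 42.1 TPM in stage III and 34.48 and 15.2 TPM in stage IV, from 1.37 and 2.29 TPM in stage I. Of 60 tested actin, microtubule and nuclear envelope genes 15 rose and 13 fell (25% and 21.7%), close to the shares of all genes, and the falls were 6 without stage I library 1, 7 without stage IV library 1 and 6 without stage IV library 2.

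**Figure D5:**
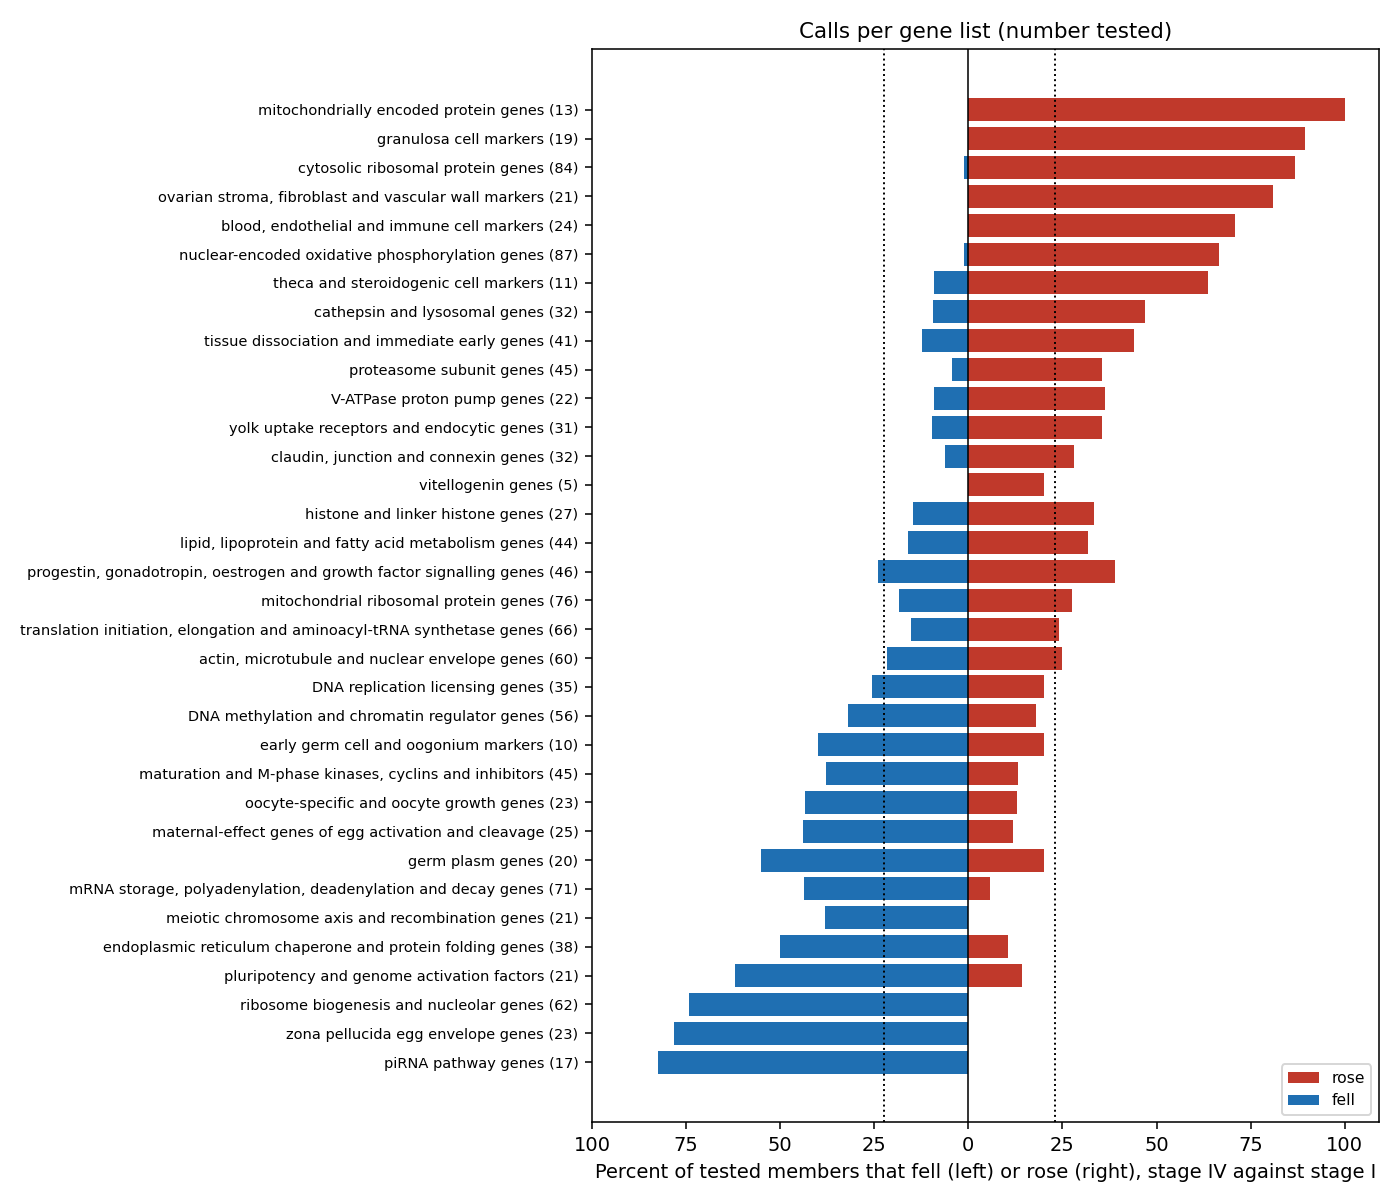
Percent of tested members that rose (red, to the right) or fell (blue, to the left) from stage I to stage IV at an adjusted p under 0.05 in each of 34 gene lists, with the number tested beside each name. Dotted lines mark the 22.9% of all tested genes that rose and the 22.4% that fell; the mitochondrially encoded, granulosa and ribosomal protein lists lie far to the right and the piRNA, zona pellucida and ribosome biogenesis lists far to the left.

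The largest single rises were of genes with almost no transcript in stage I. Of the 15 largest, si:ch211-139a5.9 headed the list, at 0 and 0.18 TPM in stage I and 869.9 and 737 TPM in stage IV (log2 change 9.53 ± 0.28 SE, adjusted p = 5.9e-06). The selenium transport protein gene selenop went from 3.48 and 2.66 TPM to 1424 and 1057 TPM (log2 change 8.24 ± 0.25 SE, adjusted p = 5.9e-06), and leap2, an antimicrobial peptide gene, from 0 and 0.02 TPM to 217 and 154 TPM (log2 change 7.51 ± 0.28 SE, adjusted p = 9.41e-06). The prostaglandin-degrading enzyme gene hpgd rose from 0.33 and 0.36 TPM to 245 and 188 TPM, and angptl4, an inhibitor of lipoprotein lipase, from 1.73 and 1.92 TPM to 367 and 295 TPM. The stress response gene nupr1b rose from 2.59 and 4.1 TPM to 953 and 669 TPM and cmah, which hydroxylates sialic acid, from 1.44 and 0.85 TPM to 225 and 267 TPM. The keratin gene krt91 stood at 1.52 and 1.1 TPM and 907 and 212 TPM, again higher in stage IV library 1. The others were cldn11a and cx34.5, described above, and 5 without a described function. In 209 genes both stage I libraries were under 1 TPM and both stage IV libraries at 10 TPM or more, and 34 of these were under 1 TPM in all libraries of stages I to III. One identifier of the gene MFAP4, left out of the 15 because 8 identifiers share its symbol and reads can be split between them, had the highest mean of all genes in stage IV. It stood at 1.0 and 2.72 TPM in stage I, 7379 and 4610.4 TPM in stage III and 8648 and 16503 TPM in stage IV. Somatic markers rose in the same stage IV libraries, and the way of isolation differed from that of stage I. The part of either in the rises of this paragraph was not tested.

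The largest falls were smaller in size than the largest rises. They included hnf4b, a nuclear receptor gene, at 34.0 and 29.1 TPM in stage I and 0.28 and 0.54 TPM in stage IV (log2 change -4.53 ± 0.38 SE, adjusted p = 0.000105), and scd, a fatty acid desaturase gene, at 57.7 and 21.1 TPM and 1.54 and 1.13 TPM (log2 change -3.95 ± 0.51 SE, adjusted p = 0.000671). The path of hnf4b was no steady fall, with 3.36 and 8.21 TPM in stage II and 27.2 and 25.6 TPM in stage III. The ephrin gene efna1b fell from 34.6 and 30.0 TPM to 1.2 and 2.22 TPM (log2 change -3.64 ± 0.33 SE, adjusted p = 0.000157), and the opsin gene opn7d from 14.4 and 17.4 TPM to 0.08 and 0 TPM (log2 change -4.02 ± 0.70 SE, adjusted p = 0.00256). Described above were cth1 and ccna2. The cytokine gene osm stood at 42.5 and 109.6 TPM and 0.12 and 24.8 TPM, and its call was lost on leaving out either stage I library or stage IV library 1 (adjusted p = 0.0583, 0.15 and 0.125), with a log2 change of -1.43 in place of -3.69 without the latter. The taxilin gene txlnbb stood at 20.6 TPM or more in stage I and at 1.05 and 1.55 TPM in stage IV, and its call was lost without either stage IV library (adjusted p = 0.0732 and 0.0532). The other 7 had no described function, and zgc:172218 had the widest spread among them, at 1001 and 64.2 TPM in stage I. This gene did not fall steadily. It stood at 36.0 and 50.5 TPM in stage II, 1132 and 1208 TPM in stage III and 0 and 33.2 TPM in stage IV. Its call was lost without stage I library 1 (adjusted p = 0.141) or stage IV library 1 (adjusted p = 0.162), when its log2 change was -3.48 or -2.9 in place of -5.45. Of the reverse pattern to the 209 genes above, with at least 10 TPM in both stage I libraries and under 1 TPM in both stage IV libraries, there were 6 genes.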

How the data were processed

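Gene values are TPM, which the authors deposited per gene and library and which are scaled to 1000000 in each library. The submitters' processing notes name the aligner STAR 2.7.3a, the quantifier RSEM and the genome build danRer11; the gene annotation is not given in the sources used here. Oocyte libraries were stranded, ribosomal-RNA-depleted total RNA from 100 ng of RNA, sequenced as single reads, per the labels' protocols. Read depth cannot be recovered from TPM, so it is unknown and no counting interval is given; the lowest genes are the least precise.

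Groups were taken from the sample titles, and no library was identical to another (0 pairs). The titles number 2 replicates per stage, and p-values measure only the spread between these pools. All 8 oocyte libraries entered 1 limma fit (limma 3.58.1, R 4.3.3) of log2(TPM + 1), so that the 4 stages share 1 estimate of the spread, moderated by empirical Bayes with a trend on the mean. The test covered genes with at least 1 TPM in at least 2 libraries, with Benjamini-Hochberg adjustment over all of them, and a call needed an adjusted p under 0.05. The counts of 2-fold changes also needed that size. The test was checked on simulated data in which all genes had the same spread and few genes changed. That setting differs from these libraries, so the check does not measure the error rate of the calls given here. Gene lists carry no test of their own and are described by counts beside the share of all tested genes that were called.

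Gene names are those of the embryo table, since 3757 differ in the oocyte table; 76 identifiers have no symbol and 1604 share one. The reference name table used here held 29201 of 32520 identifiers. It comes from another assembly, so no coordinates are given. Of the entries of the 34 lists, 61 matched no identifier. The 15 largest rises and 15 largest falls were taken from called genes that averaged 10 TPM or more in the higher stage and whose stages did not overlap, with up to 4 called members per list, the 10 most abundant genes per stage and a short fixed list. Passed over for a shared or missing symbol were 1 rise and 4 falls. Not every gene that this rule allows is described. The comparison, lists and rule were chosen with earlier results of these data known. The alternatives tried were other pseudocounts, filters and scaling, fewer samples, a replicate block, no mean trend and leaving out mitochondrially encoded genes or single libraries. Promoter motifs and protein sequences had been planned and are not analysed here, because no sequence table was at hand. The knockdown table was not used.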

Additional observations from a re-analysis of the deposited data

How the results depend on the processing

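Of the 98 called genes described, none changed sign under the 13 alternatives, and 9 lost their call under at least 1 of them. Some of these losses are not given beside the values. The call of osm was also lost with a pseudocount of 0.1 TPM, unfiltered, after scaling, with stages I and IV only and without the mean trend. That of cyp19a1a was also lost with a pseudocount of 5 TPM, unfiltered and with stages I and IV only. For bmp15 the further losses were with stages I and IV only, without the mean trend and without mitochondrially encoded genes. The calls of vtg1 and zgc:172218 were also lost unfiltered. Of the 8 uncalled genes, btg4, h2af1al, krt5 and sycp3 changed sign on leaving out 1 library, with log2 changes that ranged from -0.95 to 0.04, from -0.08 to 0.8, from -1.69 to 7.33 and from -0.07 to 0.76. How many genes pass with a 2-fold change depends on how low values are treated. With a pseudocount of 5 TPM there were 1239 rises and 1723 falls, and with a filter of 5 TPM there were 1467 rises; 996 and 1024 rises then made their largest step from stage III to IV. A larger pseudocount shrinks the change of low genes, and a stricter filter removes genes that were low in most libraries. Leaving out 1 library gave 2347 to 2915 rises and 2006 to 3198 falls, with 1749 to 2104 rises and 1702 to 2444 falls stepping mainly from stage III to IV. It gave 42 to 79 rises of ribosomal protein genes and 38 to 56 of nuclear oxidative phosphorylation genes, and the cause was not tested. The lone library of a stage is then assumed to vary like the other stages. Leaving out mitochondrially encoded genes leaves their own list without a value.

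Same-numbered libraries deviated together only in stages I and II (r = 0.437) and not in the other pairs of stages (r = -0.111 to 0.075). The main fit did not pair them. The step from stage I to II was thus tested without a pairing that those stages may share. With the replicate block, 2694 genes rose and 2747 fell at least 2-fold. The gene dazl, uncalled in the main fit, passed as lower in stage IV with that block (log2 change -0.45, adjusted p = 0.038 by limma). Depth is unknown, so a gene under 1 TPM is not shown to be absent.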

Other observations

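Many transcripts that fell by stage IV stood higher again in the 0 hpf (hours post fertilisation) embryo. The embryo libraries (n = 3) are in a table that was normalised separately, from another amount of input RNA and another extraction kit, so the values are set side by side without a test. Of the 2651 genes that fell at least 2-fold from stage I to IV, 2153 (81.2%) had a 0 hpf mean at or above the stage IV mean and 1099 (41.5%) a 0 hpf mean at or above the stage I mean. These genes were chosen for low stage IV values, so a higher value elsewhere is partly built in. The share over all tested genes was not computed. Cytosolic ribosomal protein genes took 13.9% and 11.9% of TPM in stage IV and 1.75%, 1.85% and 1.72% at 0 hpf. The share left for other genes thus differed as well. The RNA-binding protein gene cth1, at 45.9 and 57.7 TPM in stage IV, stood at 859.7, 979 and 988 TPM at 0 hpf. The cyclin gene ccnb1, at 307 and 425 TPM in stage IV, stood at 1981, 2099 and 2043 TPM. The homeobox gene nanog went from 23.0 and 53.2 TPM to 338, 347 and 363 TPM and the pluripotency gene pou5f3 from 3.7 and 7.85 TPM to 265, 238 and 280.1 TPM. Other falls stayed low, and the oocyte gene zar1 was at 33.2, 39.2 and 33.0 TPM and the egg envelope gene zp3b at 195, 228 and 191 TPM at 0 hpf.

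Many transcripts that rose in stage IV were not found at such a level at 0 hpf. Of the 2667 genes that rose at least 2-fold, 1345 (50.4%) had a 0 hpf mean at or below the stage I mean and 1356 (50.8%) a 0 hpf mean under 1 TPM. A 0 hpf mean at or above the stage I mean was held by 1386 (52.0%), and at or above the stage IV mean by 361 (13.5%). Of the 209 genes that went from under 1 TPM in both stage I libraries to at least 10 TPM in both stage IV libraries, 177 were under 1 TPM at 0 hpf. Both sets were chosen for high stage IV values, so a lower value at 0 hpf is partly built in. Shares over all tested genes were not computed for these 0 hpf counts. The receptor gene lhcgr stood at 0.05, 0.02 and 0.23 TPM and the growth factor gene igf3 was listed at 0 in all 3 libraries at 0 hpf. Among the 361 genes at or above their stage IV mean was the epithelial cadherin gene cdh1, at 342, 327 and 326 TPM against 235 and 240.0 TPM in stage IV.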
